A study of Mus musculus with 4 samples.

Results

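The genes described here are 10 cytokines and receptors of decidualization and of uterine NK-cell support: Il15 and Il15ra, Lif and Lifr, Il11 and Il11ra1, Il6 and Il6st, and Il33 and Il1rl1. They were taken by symbol from the deposited expression tables, and all 10 were found among the 21993 genes of each table. RNA had been sequenced from cells labelled as CD3-CD45+NK1.1+ uterine NK cells, collected by flow sorting at gd11.5 (gestational day) from female mice mated to B6 males. Of the 4 libraries, 2 came from Ncr1Cre mice, in which Cre recombinase is expressed under control of Ncr1, the gene of the NK receptor NKp46, and 2 from control mice lacking Cre. Both genotypes carried the same floxed allele, meant to recombine where Ncr1 drives Cre. Whether replicates are separate mice, pools or repeat preparations is not in the labels, so p-values here rest on library-to-library spread that may be only technical.

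The decidua is the lining that uterine stroma forms in pregnancy, and its growth and its NK cells depend on a small set of cytokines. Lif, Il11 and Il6 encode ligands that signal through gp130, the product of Il6st, which activates JAK kinases and STAT3. The ligand LIF joins gp130 to LIFR, while IL-11 and IL-6 first bind receptors of their own, encoded by Il11ra1 and Il6ra. IL-15 is carried to NK cells on the surface of cells that make IL-15RA and is read there by the chains encoded by Il2rb and Il2rg. IL-33 is stored in the nuclei of barrier and stromal cells, is released on damage, and binds ST2, the product of Il1rl1, which pairs with the chain encoded by Il1rap.

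The genes that mark the sorted cells were low in all 4 libraries, which touches every result below. Ncr1 was listed in the Ncr1Cre libraries at 0 and 0.15 FPKM (fragments scaled to transcript length and to library size) and in the control libraries at 0.14 and 0.36. For NK1.1 the gene is Klrb1c, at 0.67 to 0.92 and at 0.45 to 0.97 FPKM, Cd3e at 0.080 and 0.13 and at 0 in both control libraries, and Ptprc, the gene of CD45, at 4.39 to 5.16 and at 2.57 to 2.89. The 16 NK-cell marker genes summed to 44.2 to 44.8 FPKM in the Ncr1Cre and 30.2 to 30.4 in the control libraries. In the same order, 15 genes of stroma and fibroblasts summed to 15099 to 15115 and 34023 to 34497, 16 epithelial genes, mostly through Prap1, to 49424 to 52443 and 10267 to 10395, and 17 macrophage and dendritic cell genes to 114 to 115 and 58.9 to 63.0. The part of these cells in the results on the cytokines and receptors was not tested, and a change in the number of cells of a type cannot be told apart from a change of RNA per cell.

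The 150 bases before the RefSeq starts of Lifr, Lif and Il33 (build GRCm38.p6) are shown because Lifr gave the largest rise and Lif the largest fall of the tested genes among the 10, and Il33 also rose. Of the 10 genes, 9 had promoter entries, with 15 starts in all. Capitals mark the GC box bound by SP factors (GGGCGG) and the TATA box (letters TATAAA).
Lifr, first start, chr15:7129422-7129571, plus strand: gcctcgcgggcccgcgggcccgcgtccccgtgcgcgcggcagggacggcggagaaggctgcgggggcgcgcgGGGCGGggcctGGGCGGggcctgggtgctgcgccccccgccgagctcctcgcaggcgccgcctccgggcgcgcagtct
Lifr, second start, chr15:7140392-7140541, plus strand: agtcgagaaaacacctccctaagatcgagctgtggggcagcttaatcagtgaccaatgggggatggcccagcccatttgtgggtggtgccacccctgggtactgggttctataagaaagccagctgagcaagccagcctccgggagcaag
Lif, chr11:4257418-4257567, plus strand: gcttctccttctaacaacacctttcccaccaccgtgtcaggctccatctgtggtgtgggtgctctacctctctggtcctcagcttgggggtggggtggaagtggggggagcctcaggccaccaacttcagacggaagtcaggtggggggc
Il33, first start, chr19:29924963-29925112, plus strand: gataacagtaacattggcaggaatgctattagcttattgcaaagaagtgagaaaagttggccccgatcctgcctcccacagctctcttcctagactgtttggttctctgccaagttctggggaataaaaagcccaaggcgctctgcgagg
Il33, second start, chr19:29945640-29945789, plus strand: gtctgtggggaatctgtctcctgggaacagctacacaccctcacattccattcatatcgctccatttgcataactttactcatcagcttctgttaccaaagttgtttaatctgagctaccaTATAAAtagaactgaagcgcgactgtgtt

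Both strands were searched for these motifs and for the core of STAT sites, spelled TTCNNNGAA. No match overlapped one of another motif, but copies of the GC box overlapped each other in a window of Il11. The window length and the motifs were settled after a first look at these promoters, so the counts are a description. The first Lifr window held GGGCGG at bases -78 to -73 and -67 to -62 before the start and was 86.0% G and C, while the second held none of the motifs and was 57.3% G and C. The median over 32851 mouse promoter windows of that length was 54.0%. TATAAA lay at bases -29 to -24 before the second Il33 start and in no other window of these genes, against 7.57% of all promoters. GGGCGG was in 6 of the 15 windows, against 28.6% of all promoters, and TTCNNNGAA in 0 of the 15, against 4.09%. The deposited values are per gene and do not separate the starts of Lifr or Il33, nor membrane-bound from soluble forms of LIFR, gp130 or ST2.

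The genes spanned a wide range of levels, and the order of levels differed between the genotypes. In the control libraries Il11ra1 was highest, followed by Lif, Il6st, Lifr, Il15ra, Il6, Il15, Il33, Il11 and Il1rl1, and the only neighbours whose ranges overlapped were Lifr and Il15ra. In the Ncr1Cre libraries the order was Lifr, Il11ra1, Il6st, Lif, Il15ra, Il6, Il33, Il15, Il11 and Il1rl1, and the ranges overlapped for Il11ra1 with Il6st and for Il15ra with Il6. Lifr stood above 94.9% of the 21993 genes in Ncr1Cre and above 79.9% in control. Il1rl1 stood above only 39.8% and 39.7%. At the depth that the low values imply, roughly 20950000 to 38500000 fragments per library, 1 fragment on 1 kb of transcript is worth 0.026 to 0.048 FPKM. On its annotated coding transcripts the level of Il11 then rests on 12 to 73 fragments per library and that of Il1rl1 on 2 to 69.

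**Figure D1:**
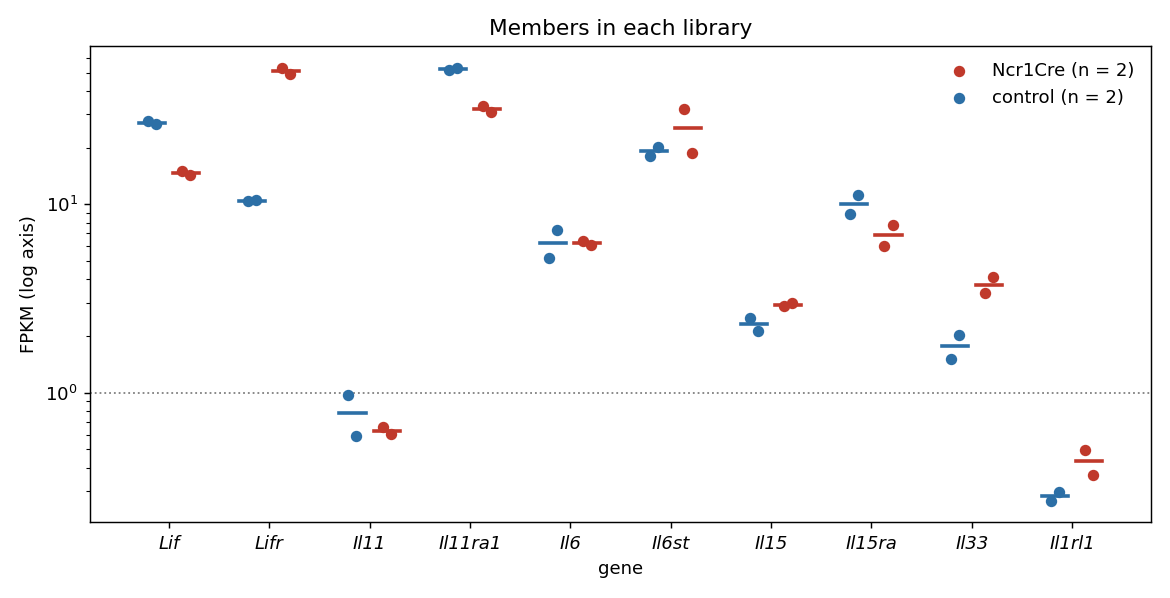
Level of each of the 10 genes in FPKM on a log axis, 1 point per library and a bar at the mean of each genotype (n = 2); the dotted line marks 1 FPKM. Lifr is at 49.0 to 53.2 in Ncr1Cre and at 10.4 to 10.5 in control, Lif and Il11ra1 are higher in control, and Il11 and Il1rl1 lie under 1 in all 4 libraries.

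Of the 10 genes, 8 averaged 1 FPKM or more in the 4 libraries and were tested, and Il11 and Il1rl1 were below it and are given as values only. The test was limma on log2(FPKM + 1) across 11762 genes with Benjamini-Hochberg adjustment, and fold changes on this scale understate the change of low genes. Lifr and Il33 were higher in Ncr1Cre, Lif and Il11ra1 were lower, and Il6, Il6st, Il15 and Il15ra did not pass an adjusted p of 0.05. Over all tested genes 48.5% passed, 30.9% as higher and 17.6% as lower, so 4 of 8 is close to the share of all genes. The split of 3638 higher and 2071 lower genes became 2296 higher and 3299 lower when every library was scaled to the same summed FPKM. The genotypes did not overlap in 7 of the 10 genes, against 67.2% of the 17500 genes above 0 in any library, and in 6 of the 8 tested genes, against 76.2% of all tested genes. The median log2 fold change was 0.13 over the 8 genes and 0.11 over all tested genes. With 2 libraries a genotype the smallest p of an exact permutation test is 0.333, and no such test is given.

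**Figure D2:**
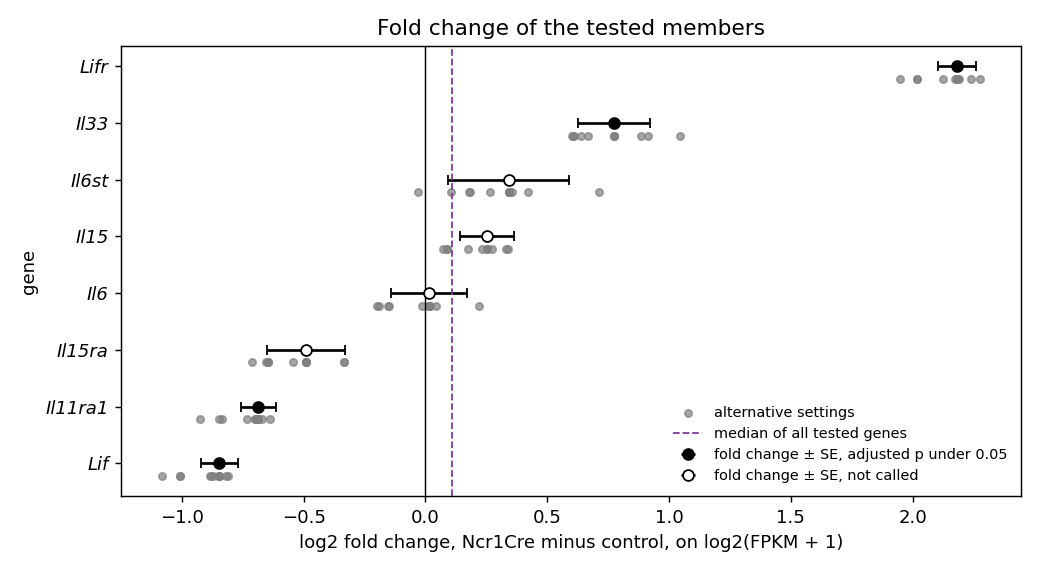
Log2 fold change of the 8 tested genes, Ncr1Cre minus control, on the log2(FPKM + 1) scale (large points with SE, filled where the adjusted p was under 0.05) and under the alternative settings (small grey points). Lifr lies between 1.95 and 2.28 under the alternatives, Lif and Il11ra1 lie left of 0 in all of them, and the points of Il6 and Il6st fall on both sides of 0.

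Among the ligands of gp130, Lif fell. Lif encodes leukemia inhibitory factor, a secreted cytokine that the uterus needs for implantation. It measured 15.0 and 14.2 FPKM in Ncr1Cre against 27.5 and 26.5 in control. The genotypes were far apart compared with their replicates, with means of 14.6 ± 0.52 and 27.0 ± 0.72 (SD, n = 2 each), a 1.85-fold difference. The log2 fold change of Lif was -0.845 (SE 0.076, limma adjusted p = 0.00106), and 4.74% of tested genes fell further. It was called in 12 of 12 alternatives, at -1.08 to -0.81.

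Il6 and Il11, the other ligands among the 10, did not separate the genotypes. Il6, a cytokine of inflammation and tissue repair, measured 6.37 and 6.09 FPKM in Ncr1Cre against 5.21 and 7.26 in control. Both Ncr1Cre values lay between the control values, and the log2 fold change was 0.014 (SE 0.16, adjusted p = 0.950). The sign of this difference turned with scaling. Il11, a cytokine of stromal decidualization, was at 0.66 and 0.60 FPKM in Ncr1Cre and at 0.97 and 0.59 in control. Its groups overlapped, and at this depth no difference was detectable.

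Lifr, which encodes the LIF receptor chain that pairs with gp130, showed the largest change of the 10 genes. It measured 53.2 and 49.0 FPKM in Ncr1Cre against 10.4 and 10.5 in control. Every Ncr1Cre value was more than 4 times every control value. The means were 51.1 ± 2.91 and 10.5 ± 0.087 (SD, n = 2 each), a 4.88-fold difference, and the log2 fold change was 2.18 (SE 0.078, limma adjusted p = 0.000153). Only 139 genes, 1.18% of those tested, rose further. It was called in 12 of 12 alternatives.

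Il6st, the gene of the shared receptor gp130, was uneven between replicates. It measured 31.9 and 18.7 FPKM in Ncr1Cre against 18.0 and 20.2 in control. Replicate 1 of Ncr1Cre was high, replicate 2 lay within the control range, and the log2 fold change of 0.34 (SE 0.25, adjusted p = 0.308) did not pass. Without replicate 2 of Ncr1Cre it was 0.71 with an adjusted p of 0.00663, and without replicate 1 it was -0.029 with an adjusted p of 0.869, so this library decides the result.

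Il11ra1, which encodes the receptor that binds IL-11 before gp130 does, fell. It measured 33.1 and 30.9 FPKM in Ncr1Cre against 51.5 and 52.6 in control. The groups did not overlap, with means of 32.0 ± 1.52 and 52.0 ± 0.82 (SD, n = 2 each), a 1.63-fold difference, and the log2 fold change was -0.69 (SE 0.072, limma adjusted p = 0.00167). In the reference annotation an exon of Il11ra1 overlaps Ccl27a on the opposite strand, and the counting is not stated to use strand. Ccl27a, looked at for this overlap, was at 7.14 and 9.64 FPKM in Ncr1Cre and at 4.63 and 3.18 in control. Il11ra2, a near-identical copy, which like Ccl27a was picked with its values in view, lay at 0.092 and 0.13 FPKM in Ncr1Cre and at 0.74 and 0.48 in control. How reads shared with it were assigned is not given in the sources used here, so the value of Il11ra1 is uncertain to that extent.

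Because LIFR and gp130 act as a pair, their levels were also set side by side within each library. Lifr was above Il6st by 0.72 and 1.35 on the log2(FPKM + 1) scale in the Ncr1Cre libraries and below it, at -0.74 and -0.88, in the control libraries. Lifr was above Lif by 1.76 and 1.72 in Ncr1Cre and below it, at -1.32 and -1.26, in control. Both orders were thus the opposite in the other genotype. Il11ra1 exceeded Il6st by 0.05 and 0.70 in Ncr1Cre and by 1.46 and 1.34 in control. These differences within a library show unequal change of the 2 genes and do not depend on the scaling between libraries apart from the pseudocount.

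**Figure D3:**
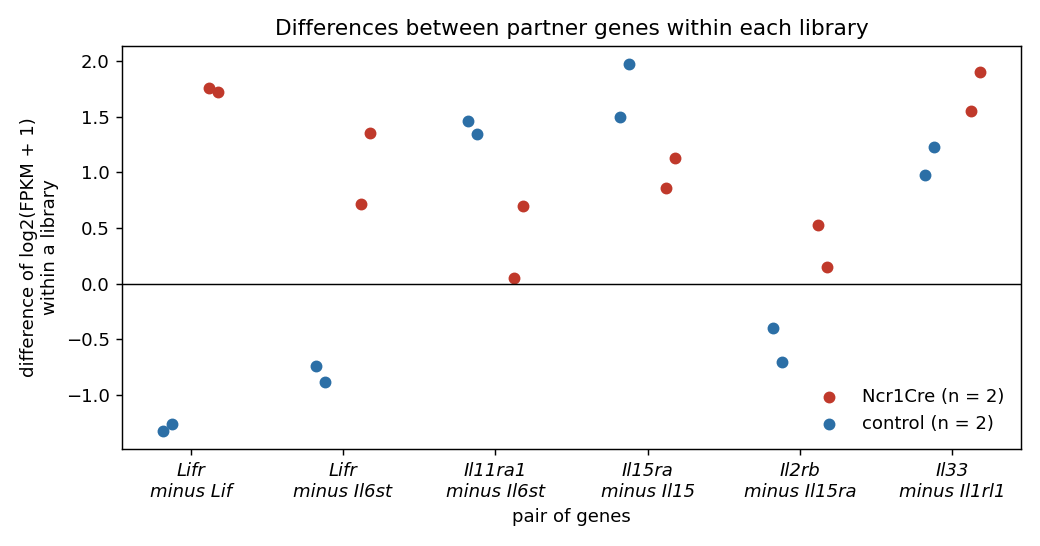
Difference between 2 partner genes within each library on the log2(FPKM + 1) scale, 1 point per library, coloured by genotype (n = 2). Lifr lies above Lif and above Il6st in both Ncr1Cre libraries and below both in the control libraries, and Il2rb lies above Il15ra only in the Ncr1Cre libraries of these 4.

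The rest of the gp130 pathway moved in both directions, as did all tested genes, of which 30.9% were higher and 17.6% lower. Of 5 tested receptors, Il6st, Il11ra1 and Lifr included, 2 rose and 2 fell. The further ones were Osmr, the receptor of oncostatin M, which stood at 9.18 and 11.1 FPKM in Ncr1Cre and at 3.35 and 3.34 in control (log2 fold change 1.35, SE 0.12, adjusted p = 0.000949), and Il6ra. Il6ra, the receptor that binds IL-6, was at 6.12 and 5.31 FPKM and at 12.7 and 10.8 (log2 fold change -0.93, SE 0.12, adjusted p = 0.00325). Of 6 tested ligands, Lif and Il6 included, 1 rose and 1 fell, the fall being that of Lif described above. Leaving out Lif and Il6, 4 ligands were tested, of which 1 rose and 0 fell. The rise was that of Osm, at 1.57 and 1.68 FPKM in Ncr1Cre and 0.65 and 0.27 in control (log2 fold change 0.86, SE 0.16, limma adjusted p = 0.0103). Its control values were under 1 FPKM, so it passed the filter only through the Ncr1Cre libraries, where it was high. Osm was called in the 9 alternatives in which it was tested, which do not include those without either Ncr1Cre replicate. Clcf1, a ligand of the CNTF receptor, measured 10.2 ± 3.06 and 8.74 ± 0.13 FPKM and did not pass.

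Of 15 tested genes of JAKs, STATs and their regulators, 3 rose and 3 fell, with a median log2 fold change of 0.031. Over all tested genes 30.9% were higher and 17.6% lower, with a median of 0.11. Stat3, the main transcription factor downstream of gp130, was at 28.2 and 27.3 FPKM in Ncr1Cre and at 27.7 and 26.6 in control, and Socs3, the feedback inhibitor that STAT3 induces, was at 128 and 113 and at 116 and 103.5. Neither gene separated the genotypes, and the adjusted p was 0.746 for Stat3 and 0.302 for Socs3. Jak1, the main kinase on gp130, fell from 84.2 ± 1.81 to 42.2 ± 1.07 FPKM (log2 fold change -0.98, adjusted p = 0.000478) and Ptpn11, the phosphatase SHP2, from 21.1 ± 0.47 to 13.5 ± 0.29. Jak2 rose from 14.5 ± 0.39 to 26.6 ± 0.058 and Cish, a STAT5-induced inhibitor, from 7.75 ± 0.41 to 14.8 ± 0.12. Socs2 fell from 48.6 ± 2.75 to 38.5 ± 2.68 (adjusted p = 0.0285, but 0.0534 to 0.120 without replicate 1 of Ncr1Cre or either control replicate).

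Genes known to respond to STAT3 gave no common direction either. Of 18 tested, 6 rose and 4 fell, which is close to the 30.9% higher and 17.6% lower over all tested genes. The median log2 fold change was 0.14, against 0.11 over all tested genes. Lrg1, a secreted glycoprotein of acute-phase responses, rose from 36.1 ± 0.71 to 411 ± 0.045 FPKM, Hp, which encodes haptoglobin, from 40.6 ± 2.74 to 103 ± 2.17, and Saa3, an acute-phase apolipoprotein, from 55.9 ± 0.22 to 94.8 ± 8.21. Il4ra fell from 118 ± 4.01 to 55.2 ± 0.49 and Irf1 from 123 ± 5.56 to 79.9 ± 1.95. Stat3, Socs3 and Osmr are in this list too. Lrg1, Hp and Saa3, which rose by 3.48, 1.32 and 0.75 on the log2 scale, are also made by epithelium. In the same libraries 15 of 16 tested epithelial marker genes rose, with a median of 2.12 over the 16. The source of the rises of Lrg1, Hp and Saa3 was not tested.

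Il15 encodes the cytokine on which NK cells depend, and its transcript was low in all 4 libraries. It measured 2.88 and 2.99 FPKM in Ncr1Cre against 2.48 and 2.13 in control. The values were higher in 2 of 2 Ncr1Cre libraries, with means of 2.94 ± 0.074 and 2.31 ± 0.25 (SD, n = 2 each). The log2 fold change of 0.25 (SE 0.11, limma adjusted p = 0.115) did not pass and lay between 0.073 and 0.34 under the alternatives, of which 0 of 11 passed.

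Il15ra, which encodes the chain that presents IL-15, was lower in both Ncr1Cre libraries, but the difference was close to the threshold. It stood at 6.03 and 7.72 FPKM in Ncr1Cre and at 8.88 and 11.2 in control, without overlap. The log2 fold change was -0.49 (SE 0.16, limma adjusted p = 0.0568). Among the rescalings and the fits with 1 library left out, it passed under the 3 rescalings, with -0.71 to -0.645 and adjusted p = 0.0144 to 0.0310, and without replicate 2 of Ncr1Cre, with an adjusted p of 0.0258. Without replicate 1 of Ncr1Cre the adjusted p was 0.158 and without replicate 2 of control 0.208. Il15ra exceeded Il15 within each library, by 0.86 and 1.13 on the log2(FPKM + 1) scale in Ncr1Cre and by 1.5 and 1.97 in control.

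The receiving chains of IL-15 were higher in Ncr1Cre. Il2rb, the signalling chain typical of NK cells, stood at 9.17 and 8.67 FPKM in Ncr1Cre and at 6.50 and 6.54 in control (log2 fold change 0.40, SE 0.086, adjusted p = 0.0160). Its call was lost under the 3 rescalings, with 0.18 to 0.24 and adjusted p = 0.0705 to 0.164, and without replicate 1 of Ncr1Cre or either control replicate, with adjusted p = 0.0660 to 0.0704. Il2rg, the common gamma chain, was at 2.55 and 2.86 FPKM in Ncr1Cre and at 0.68 and 0.53 in control (log2 fold change 1.21, SE 0.12, adjusted p = 0.00138). With control values under 1 FPKM, Il2rg passed the filter only through the Ncr1Cre libraries, where it was high. The reference annotation has Gm20489 overlapping Il2rg on the same strand, so the values of Il2rg are uncertain. Gm20489 stood at 1.58 and 2.105 FPKM in Ncr1Cre and at 1.58 and 2.49 in control, above Il2rg in both control libraries. How reads were divided between these genes is not given in the sources used here. Jak3, the kinase bound to the gamma chain, had 9.05 ± 1.60 FPKM in Ncr1Cre and 2.32 ± 0.12 in control, a rise of 1.59 on the log2 scale (SE 0.14, limma adjusted p = 0.000971). Of 7 tested genes of IL-15 and its common-gamma relatives, Il15 and Il15ra included, 3 rose and 1 fell, the fall being that of Il4ra. Under the 3 rescalings 2 rose and 2 fell, as Il2rb lost its call and Il15ra passed as lower. In the same libraries Ptprc was higher (log2 fold change 0.63, adjusted p = 0.0103), and it was called in 10 of 11 alternatives. With 1 library left out its log2 fold change was 0.53 to 0.73. Among 8 tested NK-cell markers 4 rose, but only 2 under each of the 3 rescalings. Macrophage and dendritic cell markers did not all move together. Of the 17 in the list 11 were tested, of which 8 rose and 2 fell. Over all tested genes 30.9% were higher and 17.6% lower. The median log2 fold change over the 11 was 1.19. By p the leading rises were those of Cd14 (log2 fold change 2.19, limma adjusted p = 0.00019) and Cd68 (2.05, limma adjusted p = 0.000193). The falls were those of Sirpa (log2 fold change -1.5, limma adjusted p = 0.000649) and Mertk (-0.859, limma adjusted p = 0.00136).

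Il33 rose from a low level. It measured 3.38 and 4.09 FPKM in Ncr1Cre against 1.505 and 2.04 in control. The groups did not overlap, with means of 3.74 ± 0.51 and 1.77 ± 0.38 (SD, n = 2 each), a 2.11-fold difference. The log2 fold change was 0.78 (SE 0.15, limma adjusted p = 0.0110), and 14.0% of tested genes rose further. It was called in 11 of 11 alternatives in which it passed the filter, at 0.60 to 1.04, and its adjusted p reached 0.0462 without replicate 1 of control.

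Il1rl1, the gene of its receptor ST2, measured 0.50 and 0.37 FPKM in Ncr1Cre against 0.27 and 0.30 in control. The values did not overlap but were not tested, and they rest on few fragments. Within each library Il33 was above Il1rl1, by 1.55 and 1.90 on the log2(FPKM + 1) scale in Ncr1Cre and by 0.98 and 1.23 in control. Il1rap, the chain that ST2 shares with the IL-1 receptor, was at 1.60 and 1.499 FPKM in Ncr1Cre and 1.64 in both control libraries and did not pass (adjusted p = 0.716). Myd88, the adaptor of this receptor family, was at 23.1 ± 0.30 and 25.9 ± 0.68 FPKM (adjusted p = 0.118), and passed as lower under the 3 rescalings (adjusted p = 0.0101 to 0.0201). Of the type 2 lymphoid and mast cell genes, cells on which ST2 is typical, only 6 of 17 reached the filter, of which 3 rose and 2 fell (0 fell without replicate 1 of control, and 1 without any other library). Arg1 rose from 2.45 ± 0.57 to 10.9 ± 2.62 FPKM, Hdc from 2.97 ± 0.18 to 22.9 ± 1.18 and Kit from 0.81 ± 0.048 to 1.78 ± 0.040, while Gata2 fell from 20.5 ± 0.55 to 13.8 ± 1.77 (adjusted p = 0.0545 without replicate 1 of control). Kit was under 1 FPKM in control and passed the filter only through the Ncr1Cre libraries. The 17 genes summed to 57.7 to 58.8 FPKM in Ncr1Cre and 32.3 to 32.7 in control, the rise being mostly that of Hdc and Arg1. Cpa3, Fcer1a, Mcpt8, Ms4a2, Il5 and Il13 were under 1 FPKM in all 4 libraries and were not tested. Without overlap, Cpa3, Fcer1a and Mcpt8 were higher in Ncr1Cre and Il13 was lower, while Ms4a2 and Il5 overlapped. Of the 17500 genes above 0 in any library, 67.2% did not overlap. With the filter dropped, 8 genes of the list were called higher in place of 3, and 2 lower. Over all 17500 genes 3954 were then called higher.

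Among the relatives of IL-33, Il1a and Il1b rose and Il1r1 and Il1r2 fell. Over all tested genes 30.9% were higher and 17.6% lower. Of 16 tested genes of the IL-1 family and its signalling, Il33 included, 5 rose and 5 fell, and 3 fell without replicate 1 of Ncr1Cre or either control replicate. Il1a, an alarmin released by damaged cells, had 73.3 ± 1.39 FPKM in Ncr1Cre and 9.87 ± 0.75 in control (a rise of 2.77 on the log2 scale, limma adjusted p = 0.000126) and Il1b from 1.08 ± 0.17 to 4.35 ± 0.78. Il1r1, the signalling receptor, fell from 11.8 ± 0.13 to 6.72 ± 0.36 and Il1r2, a decoy receptor, from 48.1 ± 1.65 to 24.0 ± 0.87. Sigirr, an inhibitory receptor of the family, rose from 2.19 ± 0.036 to 11.2 ± 1.22, and Irak2, a kinase downstream of MyD88, from 1.88 ± 0.20 to 3.93 ± 0.20. Il18, a relative that activates NK cells, stood at 2.48 and 1.499 FPKM in Ncr1Cre and at 2.27 and 4.27 in control, with overlap and an adjusted p of 0.205.

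**Figure D4:**
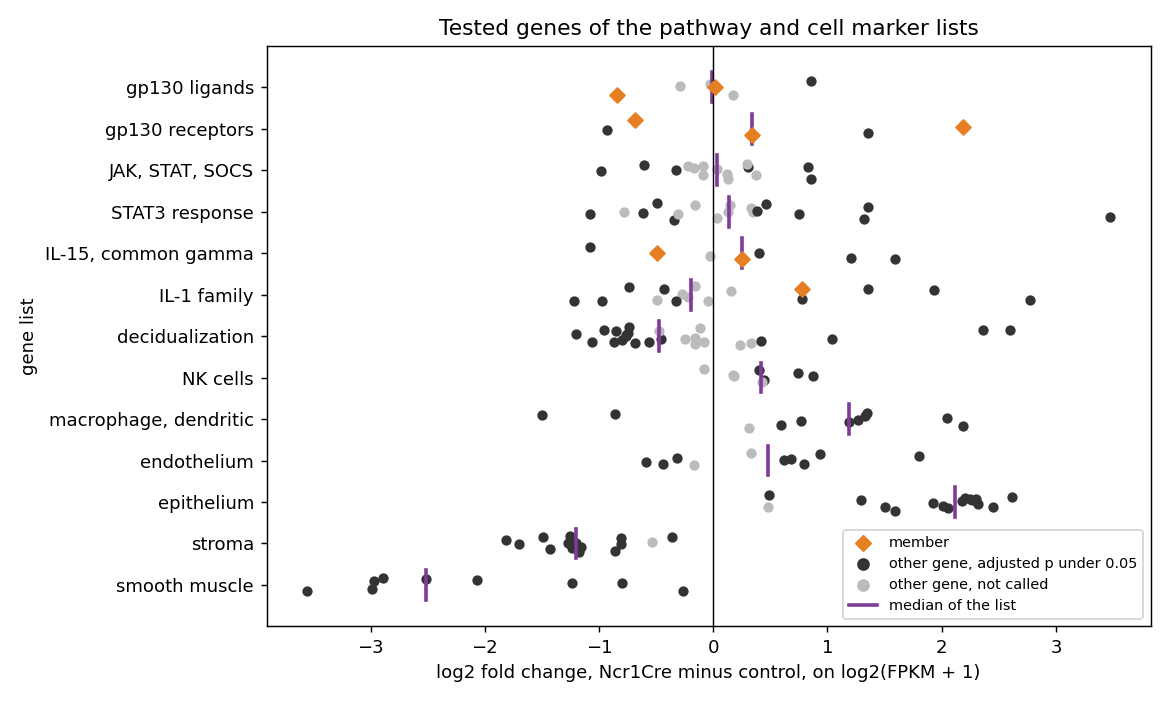
Log2 fold change of each tested gene, Ncr1Cre minus control on the log2(FPKM + 1) scale, by gene list; diamonds are the 8 tested cytokine and receptor genes, dark points other genes with an adjusted p under 0.05, grey points genes not called, and bars the median of the list. Points of the cytokine pathway lists lie on both sides of 0, all tested stromal and smooth-muscle genes lie left of it and all tested epithelial genes right of it.

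Genes of decidualization fell more often than they rose. Of 25 tested, 13 fell and 4 rose, with a median log2 fold change of -0.47. Over all tested genes 17.6% were lower and 30.9% higher, with a median of 0.11. Fkbp5, a steroid-induced chaperone, Hoxa10 and Hoxa11, transcription factors that stroma needs to decidualize, and the gap-junction gene Gja1 fell by 0.85, 0.77, 0.68 and 0.95 on the log2 scale. Prl8a2, a decidual prolactin, rose from 3.74 ± 0.54 to 23.3 ± 1.96 FPKM, and Cyp11a1, the first enzyme of steroid synthesis, from 1.35 ± 0.035 to 13.3 ± 1.11. In the same libraries 14 of 15 tested stromal genes fell, with a median of -1.21, 9 of 9 tested smooth-muscle genes fell, and 8 of 8 tested trophoblast genes rose, with a median of 1.497.

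The profiles of the tested genes over the 4 libraries were compared with those of 176 tested genes of the other lists, each centred on its mean, by the root mean square difference on the log2(FPKM + 1) scale. The 3 nearest to Lif were Fkbp5 (0.018), the macrophage marker Mertk (0.019) and Des (0.032). For Il11ra1 they were Hoxa11 (0.029), Irf1 (0.042) and Hoxa10 (0.049). The 3 nearest to Lifr were Cd14 (0.015), Krt8 (0.053) and Epcam (0.078), a monocyte marker and 2 epithelial genes. The nearest were less close for Il33, with Lyz2 (0.11), Jak2 (0.12) and Irak2 (0.12), and for Il15ra, with Timp1 (0.11), Socs2 (0.12) and Esam (0.13). Among the 3 nearest to Il15 were Irak4 (0.075) and Tyk2 (0.084). Il6 lay nearest to Mpo (0.11), Pias3 (0.12) and Ptgs2 (0.13), and Il6st to Mcl1 (0.17), Klrg1 (0.18) and Msx1 (0.19). With 4 libraries in 2 genotypes, many genes share such a profile, and the values are a description.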

How the data were processed

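Cufflinks was run by the authors on mm9, per the submitters' processing notes, and the deposited values are FPKM for 21993 genes in each of 4 libraries. Aligner, annotation, versions and handling of multiply mapped reads: not given in the sources used here. Genotypes and replicate numbers follow the labels. The floxed gene is not reported here. The members and the gene lists were chosen with earlier results of these data known, so lists were only counted.

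Symbols were matched to the tables, and 7 list genes did not match. limma 3.58.1 (R 4.3.3) with an intensity trend was fitted to log2(FPKM + 1) of genes averaging 1 FPKM or more, two-sided, with calls at an adjusted p under 0.05. A gene under 1 FPKM in 1 genotype could pass this filter through the other genotype alone, also within the counts of the lists. In 5 simulated runs over 11762 genes with 200 changed, noise drawn from each gene's own replicate variance gave back 80% to 93% of log2 changes of 2 and 51% to 63% of changes of 1, with 2.03% to 5.81% of calls false. An aim of over 90% for changes of 2 was thus missed with a simulation of this kind, and the noise was then changed to limma's moderated variance, which gave 99% to 100%, 91% to 98% and 5.37% to 9.48%. The last is above the nominal level, and the fit itself was not changed.

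Depth was estimated from whole-fragment steps of low values at GENCODE transcript lengths. Only 31.5% to 35.0% of these were whole within 0.02 fragments, and the rule that picks the total was loosened after the libraries were seen, with earlier estimates known. The stricter rule put replicate 1 of Ncr1Cre at 51920000 in place of 25990000 and replicate 2 of control at 41980000 in place of 20950000. Fragment numbers are therefore rough, and no count test between genotypes was run on them. At the looser totals the replicates differed by a median chi-square of 2.11 and 2.21, against 0.455 for sampling alone, a check that shares the uncertainty of the totals. No gene above 0 had equal values in both replicates, and they were counted as separate.

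The named genes were the members, the sort markers, a fixed set of pathway genes, up to 4 genes of a list by p (6 where more passed) and the 3 nearest profiles. Settings tried were a pseudocount of 0.1, dropping the filter, a filter of 5 FPKM, 3 rescalings (median, quantile, equal sum), the replicate block, no trend, and leaving out each library. Printed coordinates are of GRCm38.p6.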

Additional observations from a re-analysis of the deposited data

How the results depend on the processing

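Lifr, Lif and Il11ra1 kept their direction and their call in all 12 alternatives, and Il33 in the 11 in which it was tested, as it falls under a mean of 5 FPKM. Over all genes 5709 were called, and genes called higher in Ncr1Cre numbered 3638 and those lower 2071. With equal summed FPKM in each library 2296 were higher and 3299 lower, with median rescaling 2632 were higher, and with quantile normalization 2615. Leaving out 1 library, with the lone library of that genotype assumed to vary like the others, gave 1351 to 1879 lower, the smallest without replicate 1 of control. The median log2 fold change of all tested genes was 0.11 as deposited and -0.10 with equal summed FPKM, and small differences turned sign with scaling: Il6 was -0.15 with median rescaling, -0.15 with quantile normalization and -0.20 with equal summed FPKM, Stat3 was -0.13, -0.13 and -0.21 in that order, Socs3 was -0.031 with median rescaling and -0.11 with equal summed FPKM, and Clcf1 was -0.048 with equal summed FPKM. None of these was called as deposited. Without 1 library Il6 ranged from -0.19 to 0.22, Il6st from -0.029 to 0.71 and Clcf1 from -0.11 to 0.46. Of 1252 fits of a named gene under an alternative, 1190 kept direction and call, 35 lost the call, 14 gained it and 13 turned direction. With the replicate block 6004 genes were called, and Il15ra passed (adjusted p = 0.0122). The labels share only a number, and the difference of replicate 1 and 2 correlated at 0.16 between genotypes across 11762 genes, which are not independent. The depth leaves differences in Il11 and Il1rl1 undecided. The cause of these shifts was not tested.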
